A study of Mus musculus with 2 samples.

Results

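The OAS family, the interferon-induced enzymes and relatives that answer double-stranded RNA, was compared between RNA sequencing libraries of cultured gonadal fat cells from sham-irradiated and from pelvically irradiated C57BL/6 mice. The members were taken by symbol, from a list chosen with earlier results of these data known. That list leaves out Oas1d, Oas1e, Oas1f, and Oas1h, for which almost no RNA was detected. All 8 symbols listed, Oas1a, Oas1b, Oas1c, Oas1g, Oas2, Oas3, Oasl1, and Oasl2, were found among the 24091 genes of the deposited table. The sham group held 1 library labelled with no radiation, and the irradiated group held 1 library from mice labelled as given 7.5 Gy for 5 days, a wording that does not tell a daily dose from a total. Both titles also name PBS. The fat pads of both groups were taken 2 months after the radiation. They were broken up with collagenase, and the fraction that floated was kept in culture for 3 days and then used for RNA. How many mice entered each library, and their sex and age, was not given in the sources used here. As each group was a single library, there was no test between groups, no p-value was computed, and an effect of radiation cannot be told apart from any other difference between the cultures.

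Oligoadenylate synthetases bind double-stranded RNA, a sign of viral infection, and join ATP into short chains known as 2-5A. These chains set off the breakdown of viral and cellular RNA. Interferons raise transcription of the family through a complex that holds STAT2 and IRF9 and binds the interferon-stimulated response element (ISRE) in target promoters, so the genes are often read as markers of an interferon response. Mice carry several copies of Oas1, single copies of Oas2 and Oas3, and the OAS-like genes Oasl1 and Oasl2, whose proteins end in ubiquitin-like domains.

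Values are given as FPKM, the fragments per kilobase of gene length scaled to the library total. Levels can be compared between genes as far as the deposited lengths match the RNA present. Fragments per gene were recovered from these values, from library totals of about 30588000 for the sham and 34994000 for the irradiated library. For each gene, the sham value of log2(FPKM + 0.1) was subtracted from the irradiated value, and the result is called its difference. The interval beside a difference gives exact Clopper-Pearson 95% limits for the log2 ratio of recovered fragments per library total, and the interval beside an FPKM gives exact Poisson limits at 95%. Where a pair of values is given, the sham value comes first. These limits describe counting error alone. PCR copies are not separate molecules, so if copies were counted the limits are too narrow even for that. The labels describe primary adipocytes, but the adipocyte hormone Adipoq had an FPKM of 0.133 in the sham and 0.232 in the irradiated library, and the lipid droplet protein Plin1 had 0.254 and 0.478. An FPKM of 1 in either library was reached by only 4 of 12 adipocyte genes looked up. Highest was the fatty acid carrier Fabp4, with 96.9 in both libraries, followed by the transcription factor Cebpa at 13.4 and 14.4. Next were the lipase Pnpla2 at 5.11 and 5.76 and the adipocyte regulator Pparg at 4.59 and 4.69. The remaining genes stayed below 1 in both libraries, among them Lep at 0 and 0.0174, Cidec at 0.230 and 0.234, and Lipe at 0.840 and 0.846. As RNA came from a mixture, more cells of a type cannot be told apart from more RNA per cell.

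All 8 members had a higher value in the irradiated library, with differences from 0.18 for Oas1a to 1.11 for Oasl1. Summed over the members, the fragments numbered 1307 in the sham and 2382 in the irradiated library, a ratio per library total of 1.59 (interval 1.49 to 1.71). The members fell into a higher group, Oasl2, Oas1a, and Oasl1, which were above an FPKM of 1 in both libraries, and a lower group of 5, which were below 1 in both.

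**Figure D1:**
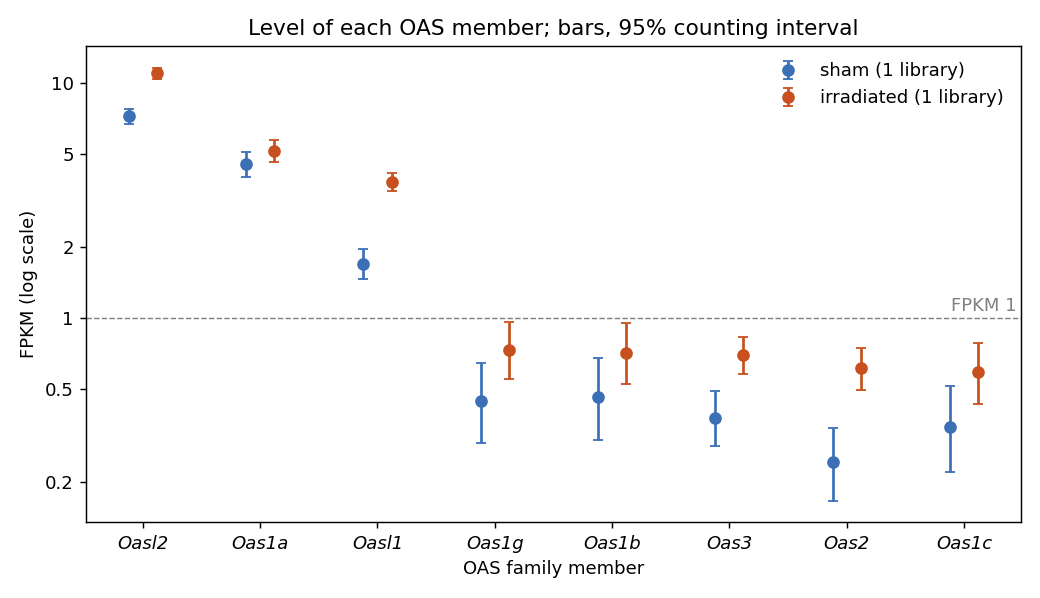
FPKM of each OAS member (log axis) in the sham library (blue) and the irradiated library (orange), 1 library each, with bars for the 95% Poisson interval of the fragments. Oasl2, Oas1a, and Oasl1 lie above an FPKM of 1, the other members lie between 0.244 and 0.735, and each orange point is above its blue point.

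In both libraries the order of levels began with Oasl2, followed by Oas1a and then Oasl1. The intervals of these neighbours in the order did not overlap, but they do not cover the gene length used. The deposited length was 3.603 kb for Oasl1, whose transcript with the longest coding sequence has 2181 bases. For Oas1a it was 1.881 kb, beside 1885 bases. A shorter length would raise the FPKM of Oasl1, so its place below Oas1a may depend on the length. The other members could not be ordered, because each overlapped the next. Oasl2 made up 47.1% of the summed FPKM of the members in the sham library and 47.2% in the irradiated library. The share of Oas1a was 29.6% and 22.1%, while that of Oasl1 was 11.1% and 16.3%.

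Oasl1 and Oasl2 are neighbours on chromosome 5 (build mm10), Oasl2 at chr5:114896934-114912245 and Oasl1 at chr5:114923240-114937911, both on the plus strand. Oasl1, which restrains translation of Irf7 mRNA and lacks synthetase activity, had an FPKM of 1.70 in the sham library (188 fragments) and 3.79 in the irradiated library (478 fragments). Its difference of 1.11 (interval 0.91 to 1.40) was the largest of the family, and its FPKM intervals, 1.47 to 1.97 and 3.46 to 4.15, did not overlap. Oasl2, which unlike Oasl1 keeps synthetase activity, had an FPKM of 7.21 (690 fragments) and 10.98 (1203 fragments), a difference of 0.60 (interval 0.47 to 0.74). The interval of Oasl1 lay above that of Oasl2, so the Oasl genes were unequally higher beyond counting error, and the ratio of Oasl2 to Oasl1 FPKM was 4.24 in the sham and 2.90 in the irradiated library. In the GENCODE annotation, predicted genes on the opposite strand overlap Oasl1 (Gm13822), Oas2 (Gm43068), and Oas1c (Gm43069). The kit kept strand, but whether the counting did was not given in the sources used here, so reads of these pairs may not be separated.

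Oas2 and Oas3 encode the larger synthetases, built from repeated OAS units, and Oas3 is the form known for making long 2-5A chains. Oas2, at chr5:120730333-120749848, had an FPKM of 0.244 in the sham library (33 fragments) and 0.612 in the irradiated library (95 fragments). Oas3, at chr5:120753098-120777659, had an FPKM of 0.376 (58 fragments) and 0.696 (122 fragments). The intervals of the irradiated values, from 0.495 for Oas2 and from 0.576 for Oas3, began above the ends of the sham intervals, 0.342 and 0.487. The differences were 1.05 for Oas2 (interval 0.75 to 1.95) and 0.74 for Oas3 (interval 0.42 to 1.36). On the ratio of fragments, without the added 0.1 that shrinks the difference of low genes, Oas2 was 2.52-fold higher, the largest ratio of the family. The ratio of Oas3 to Oas2 FPKM was 1.54 in the sham and 1.14 in the irradiated library. Together they had 91 and 217 fragments, a log2 ratio of 1.06 (interval 0.70 to 1.43).

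Oas1a, at chr5:120896257-120907525, encodes a synthetase of a single OAS unit. It had an FPKM of 4.53 in the sham library (260 fragments) and 5.14 in the irradiated library (338 fragments). Its difference of 0.18 (interval -0.05 to 0.42) was the smallest of the family and within counting error. That interval lay below those of Oasl2, Oasl1, and Oas2.

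The other Oas1 members were all low. Oas1g, at chr5:120876142-120887613, had an FPKM of 0.443 and 0.735 on 28 and 53 fragments, and its difference was 0.62 (interval 0.04 to 1.44). Oas1c, at chr5:120800199-120812514, had 0.344 and 0.588 on 24 and 47 fragments, a difference of 0.63 (interval 0.04 to 1.55). Oas1b, at chr5:120812635-120824160, had 0.463 and 0.712 on 26 and 46 fragments, a difference of 0.53 (interval -0.10 to 1.38). The ratio of Oas1b was thus not separated from equality at this depth, and those of Oas1c and Oas1g were separated by a narrow margin.

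Oas1b is the flavivirus resistance gene of mice, and laboratory strains such as C57BL/6 carry a shortened form. In the GENCODE reference its longest reading frame of 376 codons holds an in-frame stop at codon 253, and the gene is listed as a polymorphic pseudogene. The coding sequences of Oas1a and Oas1g were identical at 96.7% of 1101 aligned bases, whereas Oas1a matched Oas1b at 80.7% and Oas1c at 76.5%. Of the stretches of 50 bases in the Oas1a transcript, 57.6% also occurred in transcripts of other genes, namely Oas1g and Oas1b, and for Oas1g the share was 54.7%. At 100 bases the shares were 40.9% and 38.2%, and Oas1a and Oas1g shared them with each other only. The ratio of Oas1a to Oas1g FPKM was 10.2 in the sham and 6.99 in the irradiated library, but how shared reads were assigned was not given in the sources used here, so this split is uncertain. Their sum was 288 fragments in the sham and 391 in the irradiated library, a log2 ratio of 0.25 (interval 0.02 to 0.47). If each shared read was counted exactly once, this sum does not depend on how reads were divided within the pair. Whether shared reads were dropped or counted for both genes is not known. Over all Oas1 members the sums were 338 and 484, a log2 ratio of 0.32 (interval 0.12 to 0.53), and without Oas1a they were 78 and 146, a log2 ratio of 0.71 (interval 0.30 to 1.13). In the transcript with the longest coding sequence, read on the sense strand, Oas2, Oasl1, and Oasl2 shared no stretch of 50 bases with a transcript of another gene. The deposited lengths of Oas2 and Oasl1 exceed these transcripts (for Oasl1, 3.603 kb beside 2181 bases), and the rest was not searched.

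The members were read against all genes. An FPKM of 1 was reached in either library by 11253 genes, of which 4.31% were higher by at least 0.5 and 0.791% by at least 1, and 23.8% had a counting interval above 0, while 17.4% had one below 0. Among the members, 3 passed this filter, of which 2 (Oasl1 and Oasl2) were higher by at least 0.5 with an interval above 0, and 1 (Oasl1) was higher by at least 1. None of the 3 had an interval below 0. Their median difference was 0.60, beside 0.02 over the 11253 genes. A filter of at least 20 fragments over both libraries, chosen after the values were seen, kept 13630 genes and all 8 members. There, 6.18% of all genes and 7 of 8 members were higher by at least 0.5, and 0.902% of all genes and 2 of 8 members, Oasl1 and Oas2, by at least 1. An interval above 0 was found for 22.3% of all genes and 6 of 8 members, all but Oas1a and Oas1b. The median difference was 0.625 over the 8 members and 0.02 over the 13630 genes. The members share a locus and in part their sequence, so they are not independent of each other. A difference as large as that of Oasl1 was reached by 0.524% of the 11253 genes, whereas one as large as that of Oas1a was reached by 20.1%.

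**Figure D2:**
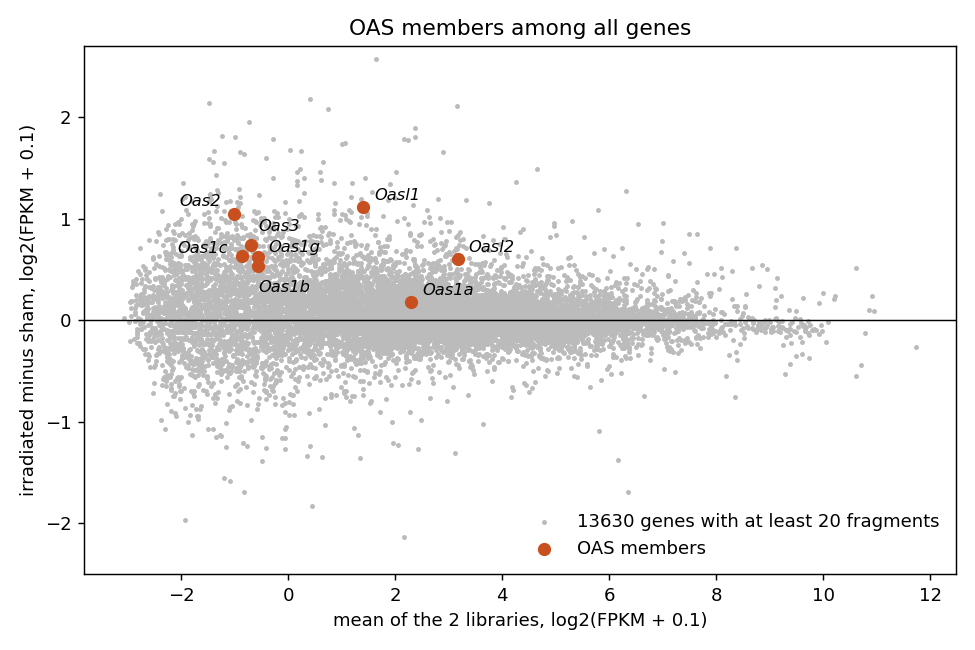
Difference of each gene (irradiated minus sham, log2(FPKM + 0.1)) against the mean of its log2 values in the 2 libraries, for the 13630 genes with at least 20 fragments (grey) and the OAS members (orange). All 8 members lie above 0, Oasl1 and Oas2 lie above 1, and Oas1a, at 0.18, lies within the grey band.

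The members lie in 2 runs on chromosome 5, the Oasl pair over 41.0 kb and the other 6 over 177 kb. Between and beside the 6 lie the remaining Oas1 copies of the mouse, for which almost no RNA was detected. No fragments were found on Oas1e, Oas1f, and Oas1h in either library, which allows an FPKM of up to 0.0574, 0.0665, and 0.0579 in the sham library and 0.0502, 0.0582, and 0.0506 in the irradiated library. Oas1d, beside Oas1a, had 1 fragment in the sham library and 0 in the irradiated library. At this depth no difference could be measured for these 4 copies.

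Of the flanking genes with more than 3 fragments in a library, only Rph3a had an interval above 0, and none had one below 0. Beside the Oasl pair, Git2, Ankrd13a, and Sppl3 had differences of 0.02, -0.01, and -0.04, each with an interval including 0. The interval of Rpl37rt, at 0.19, also included 0, and Mir6240 had 2 fragments in each library. Beside the other run, Ptpn11 had a difference of 0.02, Dtx1 one of -0.04 on 12 and 13 fragments, and Rasal1 and Cfap73 had at most 3 fragments. Rph3a, which encodes a protein of vesicle release and lies next to Oas1d, had 95 and 159 fragments and a difference of 0.48 (interval 0.17 to 0.93).

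**Figure D3:**
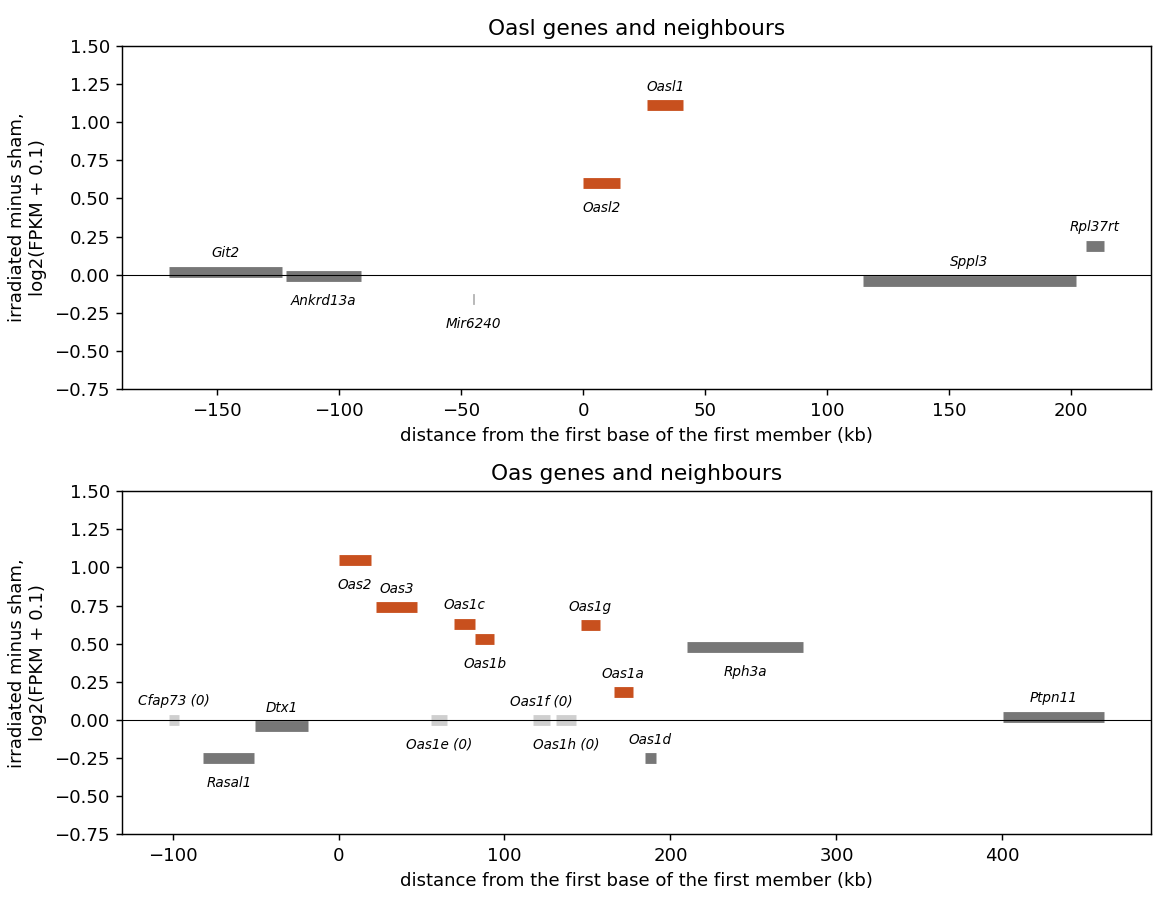
Difference of each gene (irradiated minus sham, log2(FPKM + 0.1)) against its distance in kb from the first base of the first member of its run, with members in orange, other genes in dark grey, and genes without fragments in light grey marked (0). The members are above 0 in both panels, Rph3a is at 0.48, the other flanking genes lie between -0.25 (Rasal1 and Oas1d, on at most 3 fragments) and 0.19, and Oas1e, Oas1f, and Oas1h have no fragments.

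The promoters are shown because the members are known for their ISRE. RefSeq windows of 300 bases (GRCm38.p6), from 250 before to 50 after the start site, were given for 6 of the 8 members, without Oas1b and Oas2. The core of the ISRE was searched as GAAANNGAAA on both strands, and the shorter core bound by IRF proteins, which every ISRE core contains, as AANNGAAA. The ISRE core occurred in 3.44% of all 32851 windows and in those of Oas1a, Oas1g, Oas1c, and Oas3. The IRF core occurred in 23.9% of all windows and also in that of Oasl1, with 3 matches. The window of Oasl2 held neither, which says only that these letters are not in this window. The gamma-activated sequence, searched as TTCNNNGAA, occurred in 8.30% of all windows and in that of Oas1a. Of the copies without fragments, Oas1f and Oas1h had a window, and both held 1 IRF core and no ISRE core.

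The start sites of Oas1b and Oas1c point away from each other and lie 121 bases apart, so the Oas1c window also covers the start of Oas1b. Stretches around the matches are printed in the direction of each gene, with Oas1b read from the opposite strand of the Oas1c window and the matching bases in capitals (ISRE core, or IRF core for Oasl1, whose leftmost match reads on the opposite strand). They lie at chr5:120907500-120907575 for Oas1a and chr5:120887586-120887661 for Oas1g (minus strand), chr5:120812583-120812658 for Oas1b (plus strand), chr5:120777695-120777764 for Oas3 (minus strand), and chr5:114923033-114923144 for Oasl1 (plus strand).
Oas1a: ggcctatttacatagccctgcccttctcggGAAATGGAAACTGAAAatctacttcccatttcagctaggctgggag
Oas1g: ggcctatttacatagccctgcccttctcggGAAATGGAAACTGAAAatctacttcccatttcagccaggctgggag
Oas1b: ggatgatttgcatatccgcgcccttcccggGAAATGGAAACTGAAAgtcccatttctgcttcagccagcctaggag
Oas3: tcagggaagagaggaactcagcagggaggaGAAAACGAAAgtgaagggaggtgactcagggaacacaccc
Oasl1: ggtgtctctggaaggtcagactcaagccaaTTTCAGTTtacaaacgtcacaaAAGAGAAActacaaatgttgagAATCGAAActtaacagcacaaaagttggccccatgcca

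In the Oas1 promoters, overlapping ISRE cores formed the same run of 16 bases, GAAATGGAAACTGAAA. With the start site counted as 0, the run lay from -20 to -5 in Oas1a, from -18 to -3 in Oas1g, and from -22 to -7 in Oas1b. It lay on the opposite strand from -114 to -99 of Oas1c. Among all 32851 windows the run occurred in 7, which belonged to 5 genes, Oas1a, Oas1g, Oas1c, Apol9a, and Apol9b. The Apol9 genes, interferon-induced apolipoprotein L genes named here after this match was seen, are near-identical copies, so their fragments may also be divided arbitrarily. Apol9a had an FPKM of 2.25 and 5.84 and a difference of 1.34 (interval 1.06 to 1.71), and Apol9b had 2.28 and 4.76 and a difference of 1.03 (interval 0.74 to 1.39). Oas1a, with the same run, had a difference of 0.18, so genes that share it differed widely in their values. Binding at these sites was not measured.

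**Figure D4:**
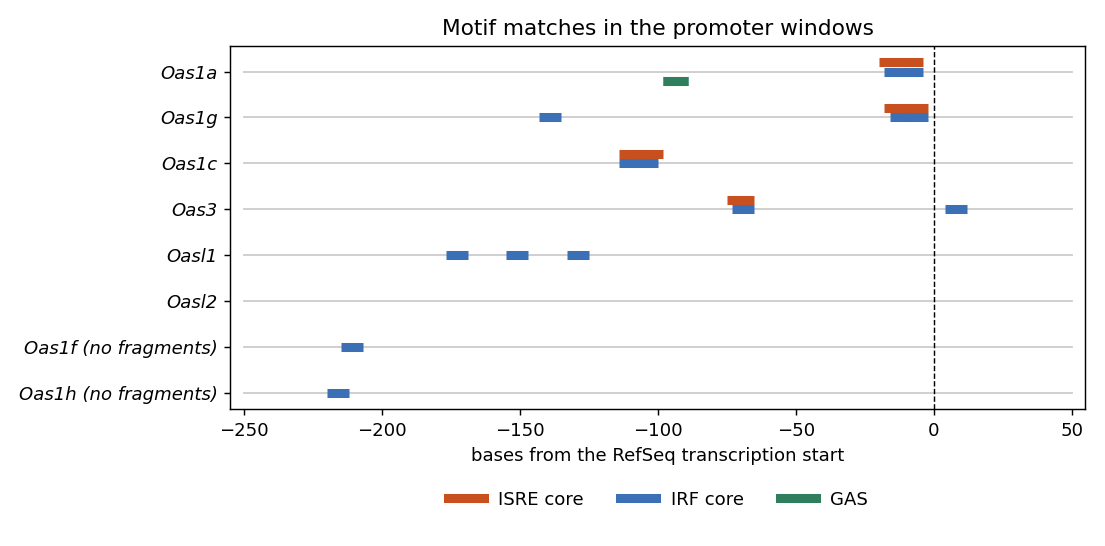
Position of motif matches in bases from the RefSeq transcription start in the promoter windows of 6 members and of Oas1f and Oas1h, with the ISRE core in orange, the IRF core in blue, and the gamma-activated sequence in green. ISRE cores lie within 20 bases before the start in Oas1a and Oas1g and farther upstream in Oas1c and Oas3, and the Oasl2 window is empty.

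Genes of the 2-5A pathway outside the family showed little difference. Abce1, whose product was described as an inhibitor of this pathway, was slightly lower, from 75.5 to 71.9, a difference of -0.07 (interval -0.11 to -0.03). Pde12, a phosphodiesterase that degrades 2-5A, was at 7.84 and 7.90, and Akap7, which has a domain of the same activity, was at 3.10 and 2.95, and both intervals included 0. The intervals of these 3 genes all lay below those of Oasl1, Oasl2, and Oas2, whereas the interval of Oas1a overlapped them.

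Of the genes that sense double-stranded RNA or pass on its signal, most had higher values in the irradiated library. Of 9 listed sensing genes, all with an FPKM of at least 1, an interval above 0 was found for 7 and below 0 for 1, beside 23.8% and 17.4% of all genes. Ifih1, which encodes the sensor MDA5, had the largest difference, 0.56 (FPKM 2.73 and 4.07), followed by Dhx58 at 0.47 (1.65 and 2.33) and Zbp1 at 0.45 (3.15 and 4.34). Eif2ak2, the kinase PKR that halts translation, had 13.2 and 15.2, a difference of 0.21, and Ddx58, the sensor RIG-I, had 9.03 and 10.4, a difference of 0.20. Ticam1, an adaptor of Toll-like receptor signalling, was lower, with a difference of -0.34 (interval -0.55 to -0.15).

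Of 12 listed genes of type I interferon signalling, the interval was above 0 for 6 and below 0 for 4, beside 23.8% and 17.4% of all genes, and the median difference was 0.13, beside 0.02 over all genes. Usp18, an interferon-induced brake on the receptor, had the largest difference, 0.86 (FPKM 3.51 and 6.44), and Irf7, a transcription factor that amplifies interferon production, had 0.55 (22.2 and 32.6). The ISRE-binding factors had differences of 0.46 for Stat2 and 0.24 for Irf9. The receptor chains were lower, with differences of -0.16 for Ifnar1 and -0.22 for Ifnar2, as was the inhibitor Socs1, at -0.55.

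Almost no interferon RNA was detected. Of 21 interferon genes, 19 had no fragments in either library, and Ifnb1 and Ifnz had 1 fragment each, in the irradiated library. A count of 0 allows an FPKM of up to 0.172 for the shortest of these genes. Interferon protein in the mice or the medium was not measured.

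**Figure D5:**
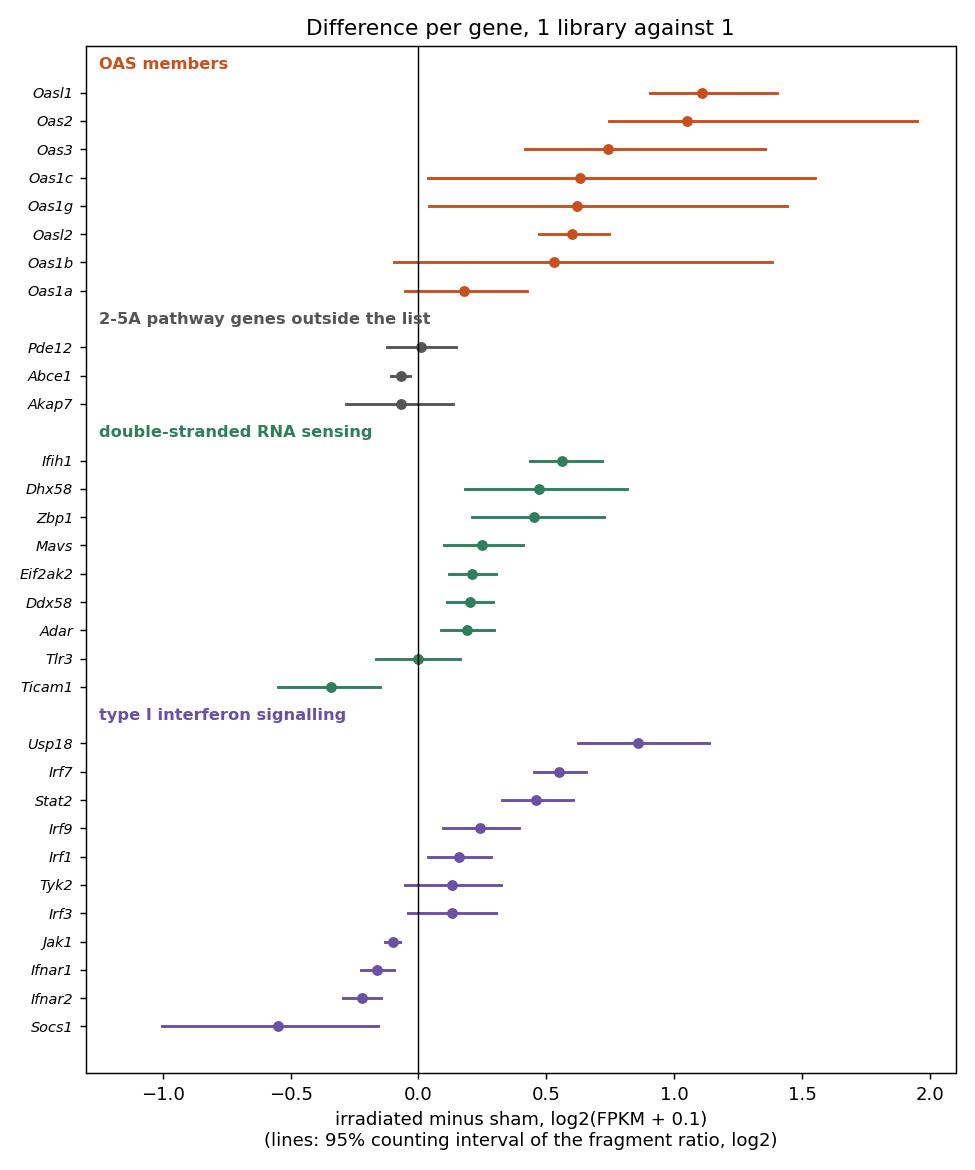
Difference of each gene (irradiated minus sham, log2(FPKM + 0.1)), 1 library against 1, with lines for the 95% counting interval of the log2 fragment ratio, in OAS members (orange), 2-5A pathway genes with an FPKM of at least 1 (grey), double-stranded RNA sensing genes (green), and type I interferon signalling genes (purple). Oasl1 and Oas2 lie above 1, Abce1 is at -0.07, and the receptor genes Ifnar1 and Ifnar2 are below 0.

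Some markers of other cell types also differed between the libraries. For scale, the interval was above 0 for 23.8% of the 11253 genes and below 0 for 17.4%. Of 14 macrophage genes, 13 had an FPKM of at least 1, of which 11 were higher and 2 lower in the irradiated library. Their median difference was 0.38. The summed FPKM over the list was 623 and 665, of which Lyz2 alone made up 443 and 410. An interval above 0 was found for 9 of the 13 and below 0 for 1, and the differences ranged from -0.11 for Lyz2 to 0.80 for C1qa and C1qc. Of 10 mesothelial genes, 9 were higher, each with an interval above 0, and 1, Wt1, was lower, at -0.13 (interval -0.22 to -0.04). The median of the 10 was 1.065. Their summed FPKM was 38.1 and 55.7, of which Wt1 alone made up 20.4 and 18.7. The 10 endothelial genes had a median of 0.165 and a summed FPKM of 89.8 and 96.8, with 5 intervals above 0 and 0 below. The 11 fibroblast and progenitor genes had a median of 0.01, with 3 intervals above 0 and 5 below. Their sum was 3716 and 3019, of which Col1a1 alone made up 1937 and 1428. The part of these cell types in the OAS differences was not tested. Of 6 genes of plasmacytoid dendritic cells, strong makers of interferon, 3 had an FPKM of at least 1, of which 1 was higher and 2 lower. The sum over the list was 82.1 and 77.5, of which Bst2 made up 66.6 and 62.1 and Tcf4 14.1 and 13.6. The differences of Bst2, at -0.10, and Tcf4, at -0.05, had intervals including 0. Irf8 was higher, at 0.53 (interval 0.33 to 0.82). The more specific markers of plasmacytoid dendritic cells were near 0, since Siglech had 0 and 1 fragments and Ccr9 had 2 and 1. None of 9 lymphocyte genes reached an FPKM of 1 (sum 2.15 and 1.09), and of 6 neutrophil genes 1 did (sum 3.49 and 2.14). Of 12 adipocyte genes 4 did, with a median of 0.065 and a sum over the list of 122 and 125, of which Fabp4 made up 96.9 in both libraries.

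Among the 3 genes whose pair of log2 values lay closest to that of Oasl2, the member with the most fragments, were 3300005D01Rik and Lilr4b. Their distances over the 2 libraries were 0.0283 and 0.0447. With 2 libraries such closeness means only a similar level and a similar difference.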

How the data were processed

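RNA was polyadenylated and the library kit stranded, per the labels. The deposited values are log2(FPKM + 0.1) to 2 decimals, made by the authors, beside gene coordinates and lengths. The labels name the build mm10. Aligner, counting tool, and filters were not given in the sources used here. FPKM was recovered by subtracting 0.1. The library total was the one that gave whole fragments over low genes (3573 of 3573 genes in the sham and 3563 of 3563 in the irradiated library within 0.12), which left rounding errors of at most 4.21 fragments for a member. Tested on whole counts simulated with the same formula and lengths and with similar totals, the procedure returned the totals set. This does not test whether the deposited values were made in that way. The members and gene lists were chosen with earlier results of these data known, and the text names all members, the genes of the fixed lists that results turn on, 3 flanking genes per side, and the 3 genes nearest to the member with the most fragments. A few genes of these sets are not reported here. Alternatives were the added constant, filters, scaling, and summed paralogs. Transcripts, exons, and antisense genes came from GENCODE M21 (GRCm38) and promoters from RefSeq. The paper does not describe these libraries. Tools were Biopython 1.88, SciPy 1.17.1, numpy 2.4.6, matplotlib 3.10.9, and pandas 2.3.3 under Python 3.11.15.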

Additional observations from a re-analysis of the deposited data

How the results depend on the processing

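No paired analysis was possible because each group had 1 library, and no replicate could be left out. Of 32 recomputed differences of single members, 32 were above 0 and 29 stayed within the counting interval. The others were Oas2, Oas3, and Oasl1 with log2(FPKM + 1), at 0.37, 0.30, and 0.83, where the larger constant shrinks low genes. The count of members higher by at least 0.5, 2 as reported, was 7 without a filter and with at least 20 fragments, and 1 with an FPKM of at least 5. That of members higher by at least 1, 1 as reported, was 2, 2, and 0, and 0 with log2(FPKM + 1). That of intervals above 0, 2 as reported, was 6, 6, and 1. The filter sets how many members are counted (8, 8, and 2 against 3). The median, 0.60 as reported, was 0.39 with an FPKM of at least 5. Centring subtracted 0.02 from each difference. With scaling without the 100 most abundant genes, the differences ran from 0.17 for Oas1a to 1.10 for Oasl1. The filter of 20 fragments and the sum of Oas1a and Oas1g were added after the data were seen. Depth limits the low members most, such as Oas1b with 26 and 46 fragments.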
